A study of Mus musculus with 12 samples.

Results

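The liver X receptors (LXRs) and genes of lipid handling that they are known to control were followed in mouse macrophages given a Toll-like receptor 4 agonist, a defensin, or both. The set was 10 named genes: the receptors Nr1h2 and Nr1h3, the transporters Abca1 and Abcg1, the apolipoproteins Apoe and Apoc2, the lipase Lpl, the acyltransferase Lpcat3, the ubiquitin ligase Mylip and the transcription factor Srebf1. A gene was represented by the probe, among those annotated to its symbol alone, with the highest mean signal. Of 19057 genes with such a probe on the array, 9 were in the set. No probe was annotated to Nr1h2 alone, and it was not analysed here. Detection means a p-value under 0.01 for a probe's signal against negative control beads on the same array. By that measure 8 of the 9 genes had signal in every array of 1 group or more, and Abca1 was the exception.

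Bone marrow cells of Balb/c mice were grown for 7 to 10 days with M-CSF (20 ng/ml), which turns marrow precursors into macrophages. According to the study's methods, cells were then kept without growth factor before treatment. The treatment lasted 6 h. The 4 groups of 3 arrays were KLA plus hBD3, KLA, hBD3 and untreated. KLA is Kdo2-lipid A, the membrane-anchoring part of bacterial lipopolysaccharide, and was labelled at 50 ng/ml. Human beta-defensin 3 (hBD3) is a cationic antimicrobial peptide, labelled at 5 mg/ml for hBD3 alone where the study's methods use micrograms per ml, and the KLA plus hBD3 label states neither dose. For KLA replicates 2 and 3 the treatment label reads KLA while the title includes HBD3, so values are given per array. The replicates of a treatment came from separate mice according to the study, which does not say whether arrays with the same number in different groups share a mouse. All groups shared strain, growth factor and time, and no allele or transgene is labelled.

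LXRs are nuclear receptors that bind oxysterols, which accumulate when a cell holds excess cholesterol. Each pairs with a retinoid X receptor on a repeated DNA half-site and switches on genes that export cholesterol, load it onto lipoproteins, remodel membrane phospholipids and make fatty acids. Macrophages depend on this programme because they take up lipoproteins and dying cells. Nr1h3 encodes LXR alpha and Nr1h2 encodes LXR beta.

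The arrays measured 45281 probes, of which 12363 to 15629 were detected per array, and arrays of a group correlated at 0.969 to 0.993 over all probes. The number of arrays limits the precision. Inflammatory genes used as a check of the treatment (Tnf, Il1b, Cxcl2 and Socs3) averaged 12.29 to 12.51 log2 units in KLA plus hBD3 arrays, 13.85 to 13.87 in KLA arrays, 7.70 to 10.36 in hBD3 arrays and 8.26 to 8.55 in untreated arrays. The high hBD3 array was replicate 1. KLA replicates 2 and 3, whose titles include HBD3, both averaged 13.85, beside 13.87 in KLA replicate 1. They lay above every KLA plus hBD3 array, which goes with their treatment label and not with their titles. All 11 measured macrophage markers of 12 listed were detected. Of marker lists for other cells, 0 of 7 measured adipocyte genes, 0 of 7 T and NK cell genes, 1 of 5 B cell genes, 1 of 8 dendritic cell genes, 2 of 9 neutrophil genes and 7 of 14 stromal cell genes were detected. The stromal list averaged 8.23 log2 units in hBD3 replicate 3, against 6.61 to 6.98 in the other 11 arrays.

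Values are log2 of the quantile-normalized signal, and a change is a difference of group means on that scale with its standard error. A gene was called at an adjusted p under 0.05 in limma, adjusted over all 45281 probes. A difference in RNA from fewer cells of a type cannot be told apart from less RNA per cell.

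The first question was how KLA changed these genes. In KLA macrophages the sterol exporter Abcg1 and the lipase Lpl were lower than in untreated macrophages, and none of the 9 genes was called higher. Abcg1 moves cholesterol from the cell to high density lipoprotein particles, and Lpl hydrolyses the triglyceride of lipoproteins.

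Abcg1 signal in KLA arrays was 7.78, 7.91 and 8.65, against 10.30, 10.15 and 10.34 in untreated arrays. The groups lay more than a log2 unit apart at their nearest arrays. The change was -2.15 ± 0.32 (SE), a 4.43-fold lower signal, with an adjusted p of 4.79e-04 in limma.

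Lpl signal in KLA arrays was 13.29, 13.04 and 13.24, against 13.91, 13.65 and 13.72 in untreated arrays. Every KLA array was below every untreated array. The change was -0.57 ± 0.10, 1.49-fold lower, with an adjusted p of 0.00225. When replicate 1 stood for the KLA group by itself, because the titles of the others include HBD3, the Lpl change was -0.47 and not called (adjusted p = 0.0809). That fit assumes that a single KLA array varies like the arrays of the other groups.

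Called lower in this comparison were 8% of all probes and 23.1% of the 14495 detected probes, beside 2 of the 9 genes. Called higher were 6.84% of all probes. The arrays of 3 of the 9 genes did not overlap between the groups, those of Abcg1, Lpl and Lpcat3, where 27.7% of all probes did not overlap. The median change of the 9 genes was -0.25, against 0.00 over all probes. When signals were centred on each array's median in place of quantile normalization, 5 of the 9 genes were called lower, with Apoc2 (-1.34), Lpcat3 (-0.84) and Nr1h3 (-0.80) added. That setting called 8509 of 45281 probes, 14.97% of them higher, against 6717 in the main fit. The median change of detected probes was -0.52 with it.

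The other genes were not called. Nr1h3 signal in KLA arrays was 9.29, 9.60 and 9.84, against 10.00, 9.73 and 9.74 in untreated arrays, a change of -0.25 ± 0.14 (adjusted p = 0.341). One KLA array lay within the untreated range. Apoc2 encodes a cofactor of Lpl on lipoproteins, and its signal in KLA arrays was 8.10, 8.63 and 8.48, against 8.38, 9.34 and 9.51 in untreated arrays. Untreated replicate 1 lay within the KLA range, and the change was -0.67 ± 0.26 (adjusted p = 0.129). With the replicate number as a block the Apoc2 change had an adjusted p of 0.0212, and 3 of the 9 genes were called, beside 7823 of 45281 probes. Without untreated replicate 1 the Apoc2 change was -1.02 (adjusted p = 0.00417).

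Apoe, an apolipoprotein that carries cholesterol released by macrophages, was at 12.85, 13.32 and 12.69 in KLA arrays and 12.44, 13.24 and 13.36 in untreated arrays. The groups overlapped, and the interval of the change ran from -0.62 to 0.50. Srebf1, which drives fatty acid synthesis, was at 6.98, 7.02 and 6.85 in KLA arrays and 7.06, 6.40 and 6.90 in untreated arrays. Mylip, which marks the low density lipoprotein receptor for breakdown, was at 6.83, 6.79 and 6.02 in KLA arrays and 6.58, 6.91 and 6.06 in untreated arrays, with 2 of 3 arrays of each group detected. Replicate 3 was the low array of Mylip in both groups. The intervals of the Srebf1 and Mylip changes ran from -0.14 to 0.46 and from -0.54 to 0.61.

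Abca1, the transporter that hands cholesterol to lipid-poor apolipoprotein A-I, had 1 probe, and it was detected in 0 of 12 arrays. Its signal lay between 5.61 and 5.94 in all 4 groups, at background, so its level in these cells is not known from this probe. No fold change is given for it here, and its log2 changes listed under other settings at the end are those of background signal.

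**Figure D1:**
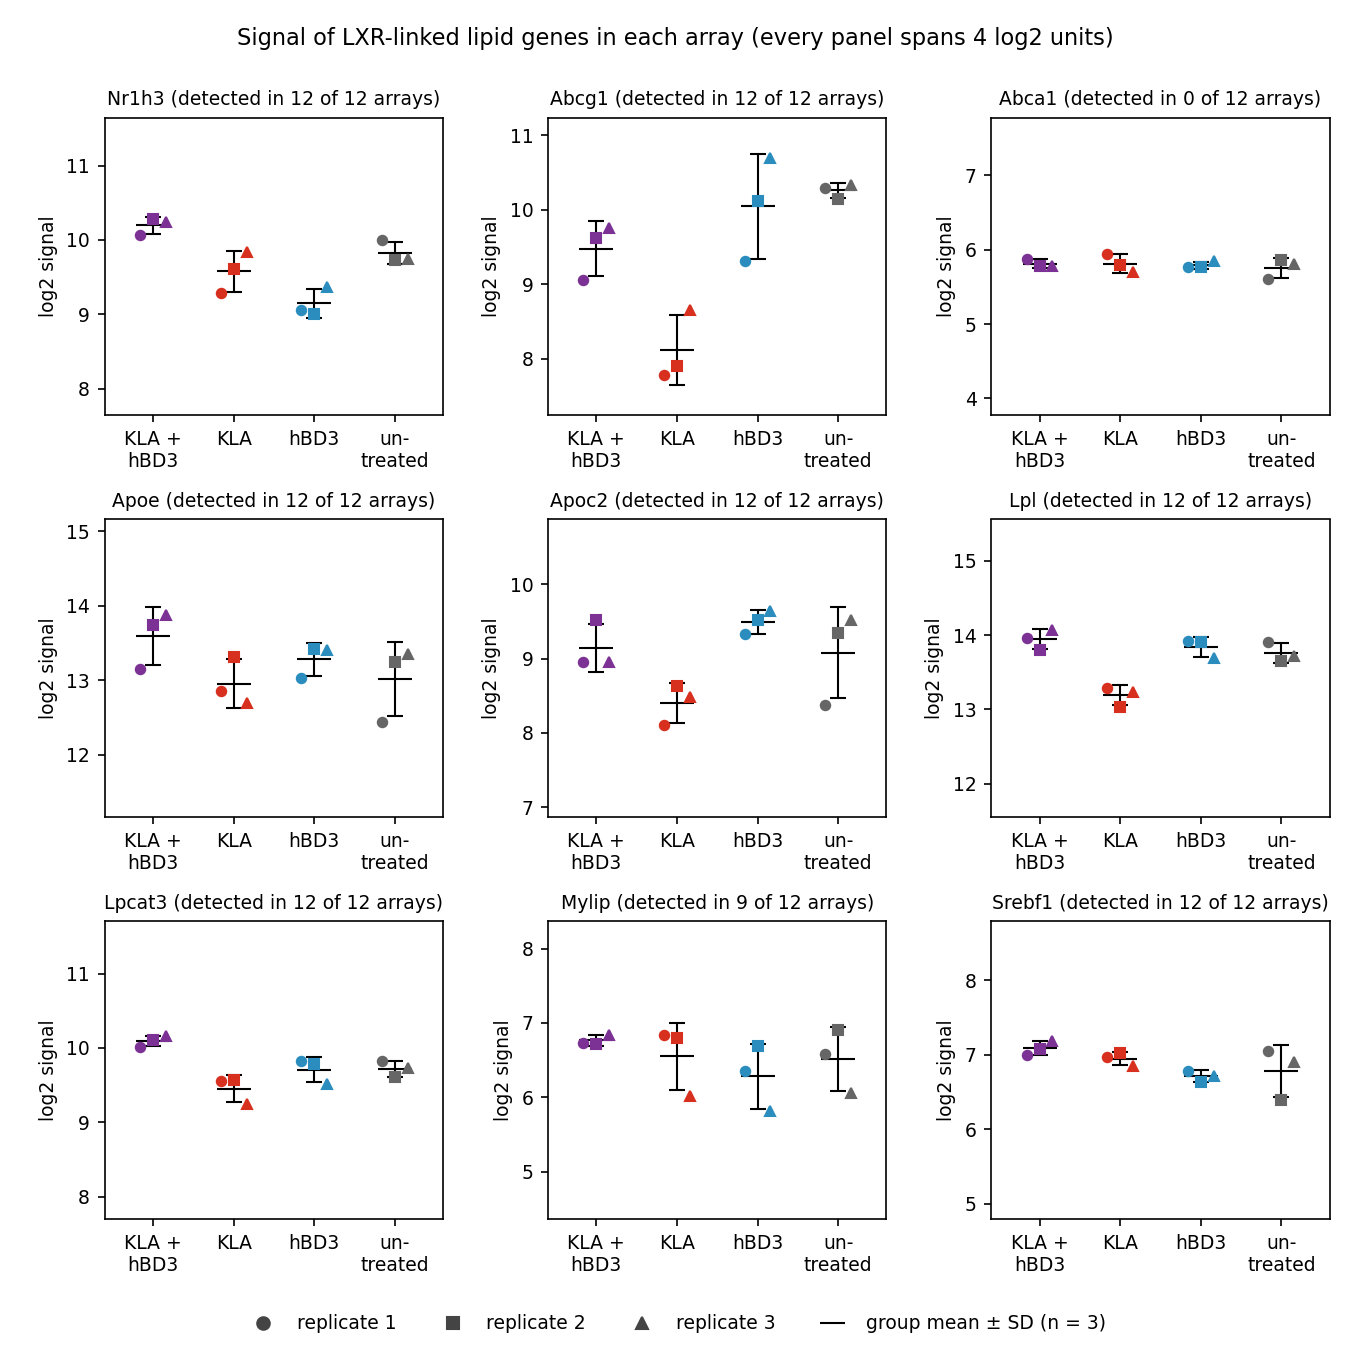
Log2 signal of the 9 measured genes in each array (points, shaped by replicate number) with the group mean and SD (n = 3) for KLA plus hBD3, KLA, hBD3 and untreated macrophages. Abcg1 lies between 7.78 and 8.65 in KLA arrays and above 9 in all other arrays, and Abca1 stays between 5.61 and 5.94.

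The second question was what hBD3 changed in macrophages that also received KLA. Of the 9 genes, 4 were higher in KLA plus hBD3 macrophages than in KLA macrophages, namely Abcg1, Lpl, Lpcat3 and Nr1h3, and 0 were lower. Called higher were 3.5% of all probes and 10.9% of the detected probes. The arrays of 5 genes did not overlap between the groups, those 4 and Apoc2, where 20.8% of all probes did not overlap. The median change of the 9 genes was 0.64, against 0.00 over all probes.

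Abcg1 signal in KLA plus hBD3 arrays was 9.06, 9.63 and 9.75, against 7.78, 7.91 and 8.65 in KLA arrays. No array of the groups overlapped. The change was 1.37 ± 0.32, 2.58-fold higher, with an adjusted p of 0.0207.

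Lpl signal in KLA plus hBD3 arrays was 13.95, 13.80 and 14.07, against 13.29, 13.04 and 13.24 in KLA arrays. The change was 0.75 ± 0.10, 1.68-fold higher, with an adjusted p of 7.88e-04. It was called whichever array was left out.

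Lpcat3 places polyunsaturated fatty acids into membrane phospholipids. Its signal in KLA plus hBD3 arrays was 10.02, 10.11 and 10.16, against 9.56, 9.56 and 9.24 in KLA arrays. All 3 KLA plus hBD3 arrays also lay above every array of the other groups. The change was 0.64 ± 0.11, 1.56-fold higher, with an adjusted p of 0.00293. This is the brighter of 2 Lpcat3 probes, and the dimmer one changed by -0.15 ± 0.11 (adjusted p = 0.678).

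Nr1h3 signal in KLA plus hBD3 arrays was 10.06, 10.28 and 10.24, against 9.29, 9.60 and 9.84 in KLA arrays. These were the 3 highest Nr1h3 values of the series. The change was 0.62 ± 0.14, 1.53-fold higher, with an adjusted p of 0.0193.

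Not every setting kept these calls. With median centring the change was 1.37 for Abcg1 (adjusted p = 0.0875), 0.57 for Lpcat3 (0.320), 0.52 for Nr1h3 (0.369) and 0.37 for Lpl (0.693), and 0 of the 9 genes were called. The Abcg1 call was also lost without KLA replicate 1 or 2 or KLA plus hBD3 replicate 2 or 3 (adjusted p = 0.0761 to 0.0921), and the Nr1h3 call without KLA replicate 1 or KLA plus hBD3 replicate 2 or 3 (0.0743 to 0.0820). Over the 12 fits that each left out 1 array, the change was 1.20 to 1.64 for Abcg1 and 0.47 to 0.75 for Nr1h3.

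The apolipoproteins were not called without the replicate number as a block. Apoe signal in KLA plus hBD3 arrays was 13.14, 13.75 and 13.88, against 12.85, 13.32 and 12.69 in KLA arrays, and 1 KLA array lay above the lowest KLA plus hBD3 array. The change was 0.64 ± 0.26 (adjusted p = 0.232). Apoc2 signal in KLA plus hBD3 arrays was 8.95, 9.52 and 8.96, against 8.10, 8.63 and 8.48 in KLA arrays. The groups did not overlap, and the change was 0.74 ± 0.26 (adjusted p = 0.152). Without untreated replicate 1, which enters the shared estimate of the spread, the same Apoc2 change had an adjusted p of 0.0240. With the replicate number as a block, Apoe (adjusted p = 0.0354) and Apoc2 (0.0222) were called higher. That fit called 6 of the 9 genes and 4161 of 45281 probes. Among KLA plus hBD3 arrays only replicate 1 deviated with the same-numbered arrays of the other groups (correlations of deviations 0.13 to 0.28). For replicates 2 and 3 these correlations were -0.07 to 0.09. Apoe and Apoc2 lie near each other on chromosome 7, with 18303 bases between them in GRCm38.p6. Mylip was at 6.74, 6.71 and 6.84 and Srebf1 at 7.00, 7.08 and 7.19 in KLA plus hBD3 arrays, changes of 0.22 ± 0.26 and 0.14 ± 0.14 from KLA arrays. The intervals of these changes ran from -0.36 to 0.79 and from -0.16 to 0.44.

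Macrophage markers moved in the same direction as these genes. The list's mean level was 10.81 to 11.13 in KLA plus hBD3 arrays, 10.19 to 10.48 in KLA arrays, 10.76 to 11.05 in hBD3 arrays and 10.73 to 11.12 in untreated arrays. Its summed signal was 52869 to 61789 in KLA plus hBD3 arrays, 41807 to 52669 in KLA arrays, 42941 to 47224 in hBD3 arrays and 43697 to 54061 in untreated arrays. Of the 11 markers, 5 were higher and 0 lower in KLA plus hBD3 against KLA, and 1 was higher and 6 lower in KLA against untreated. Some markers of other cells moved in the same comparisons. The neutrophil list had a summed signal of 679 to 835 in KLA plus hBD3 arrays, 875 to 1418 in KLA arrays, 660 to 721 in hBD3 arrays and 622 to 695 in untreated arrays. In KLA against untreated, 2 of its 9 measured genes were higher, S100a8 (1.44 ± 0.27) and Camp, which was not detected in untreated arrays and was at least 2.17-fold higher, and Camp was lower in KLA plus hBD3 than in KLA arrays (-0.84 ± 0.16). The summed dendritic cell list was 463 to 490 in KLA plus hBD3 arrays, 604 to 709 in KLA arrays, 502 to 527 in hBD3 arrays and 465 to 517 in untreated arrays, and 1 of its 8 genes was called, Batf3, at 1.04 ± 0.15 in KLA against untreated and -1.37 ± 0.15 in KLA plus hBD3 against KLA. The summed stromal list was 4541 to 5869 in KLA plus hBD3 arrays, 2598 to 4022 in KLA arrays, 5530 to 18531 in hBD3 arrays and 5245 to 6268 in untreated arrays. Of its 14 genes, 2 were called in both comparisons. Vim changed by -1.19 ± 0.27 with KLA and by 1.09 ± 0.27 in KLA plus hBD3 against KLA, where the second call was lost when KLA plus hBD3 replicate 1 (adjusted p = 0.0710) or replicate 3 (0.119) was left out. Pdgfrb was detected in KLA arrays but in 0 KLA plus hBD3 and 0 untreated arrays, and was at least 2.09-fold lower in KLA plus hBD3 than in KLA arrays and at least 2.27-fold higher in KLA than in untreated arrays. After median centring S100a8 (0.82, adjusted p = 0.0570) and Batf3 (0.44, adjusted p = 0.0619) were not called in KLA against untreated, nor Vim in KLA plus hBD3 against KLA (0.92, adjusted p = 0.220). The part of these shifts in the changes above was not tested.

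**Figure D2:**
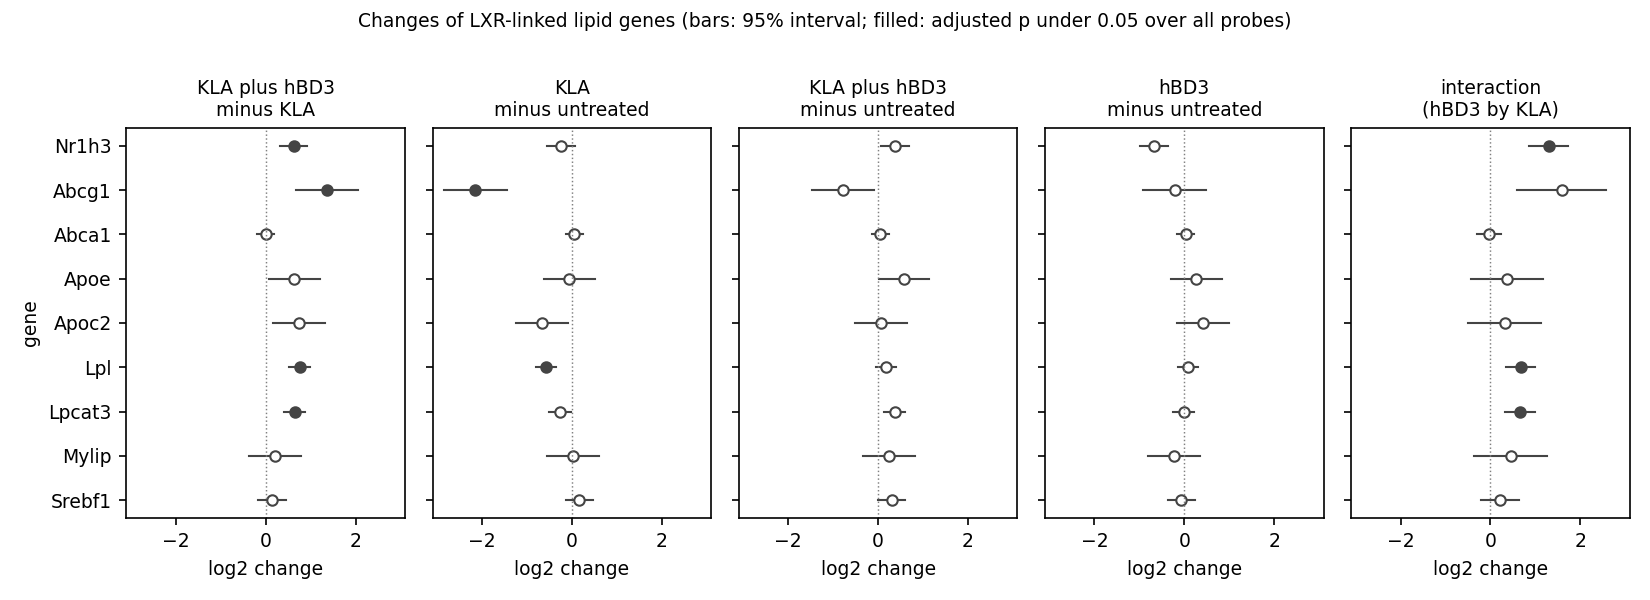
Log2 change of each gene (points) with its 95% interval (bars) in 5 comparisons, filled where the adjusted p over all probes was under 0.05. Filled points are 4 in KLA plus hBD3 minus KLA, 2 in KLA minus untreated, 3 in the interaction, and 0 in the comparisons of KLA plus hBD3 and of hBD3 with untreated.

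Macrophages given both agents were next set against untreated ones, which shows what remained different with hBD3 present. Here 0 of the 9 genes were called in limma, 5 had an unadjusted p under 0.05, and 4.39% of all probes were called in either direction. Abcg1 was at 9.06, 9.63 and 9.75 in KLA plus hBD3 arrays, all below the 10.15 to 10.34 of untreated arrays, a change of -0.78 ± 0.32 (adjusted p = 0.249). With the replicate block it was called (adjusted p = 0.0422). Nr1h3 and Lpcat3 lay above the untreated range in all 3 arrays, with changes of 0.37 ± 0.14 and 0.37 ± 0.11 (adjusted p = 0.213 and 0.0861). Without KLA replicate 3, the Lpcat3 adjusted p was 0.0392. The arrays of these 3 genes did not overlap between the groups, where 21.7% of all probes did not overlap. The Lpl change was 0.18, with an interval from -0.05 to 0.41.

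With hBD3 alone, 0 of the 9 genes were called against untreated, 1 had an unadjusted p under 0.05, and 0.00442% of all probes were called. That gene was Nr1h3, at 9.06, 9.01 and 9.37 in hBD3 arrays and 10.00, 9.73 and 9.74 in untreated arrays. The groups did not overlap, which held for 11.7% of all probes. Its change was -0.68 ± 0.14, with an unadjusted p of 4.99e-04 and an adjusted p of 0.196. Without the replicate 3 arrays of KLA, hBD3 and untreated it was -0.83 (adjusted p = 0.0464).

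Abcg1 was spread over hBD3 arrays, at 9.31, 10.12 and 10.70, around the 10.15 to 10.34 of untreated arrays. The lowest was replicate 1, the array in which the inflammatory genes were high, and the highest was replicate 3, the array in which the stromal list was high. The part of either in the Abcg1 value was not tested. Lpl was at 13.92, 13.91 and 13.69 and Lpcat3 at 9.82, 9.78 and 9.52 in hBD3 arrays, overlapping the untreated ranges of 13.65 to 13.91 and 9.61 to 9.83. The intervals of their changes ran from -0.15 to 0.31 and from -0.25 to 0.22. Apoe was at 13.02 to 13.41 and Apoc2 at 9.33 to 9.63 in hBD3 arrays, and neither was called (adjusted p = 0.878 and 0.793).

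The interaction asks whether hBD3 changed a gene differently with KLA than without it. It was called for Nr1h3, Lpl and Lpcat3, higher in each, where 1.66% of all probes were called higher and 1.74% lower. For Nr1h3 the change with hBD3 was 0.62 in the presence of KLA and -0.68 in its absence, a difference of 1.29 ± 0.20 with an interval from 0.86 to 1.73 (adjusted p = 0.00400). The Nr1h3 interaction was called whichever array was left out. For Lpl the difference was 0.67 ± 0.15 (adjusted p = 0.0280), and for Lpcat3 it was 0.65 ± 0.15 (adjusted p = 0.0386).

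The Lpl call was lost when any of 6 of the 12 arrays was left out, which were KLA plus hBD3 replicates 1 and 3, KLA replicate 2, hBD3 replicate 3 and untreated replicates 1 and 3 (adjusted p = 0.0527 to 0.0787). The Lpcat3 call was lost with any of 9 left out (0.0529 to 0.104), and was kept only without KLA replicate 2, hBD3 replicate 1 or untreated replicate 2. The Abcg1 difference was the largest of the 9, 1.58 ± 0.45, and was not called (adjusted p = 0.0955). It was called without KLA replicate 3 (1.85, adjusted p = 0.0366) or hBD3 replicate 3 (1.91, adjusted p = 0.0248), and with the replicate block (1.58, adjusted p = 0.00819).

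Second probes were available for 6 of the 9 genes, and all were dimmer. The second probe of Nr1h3 gave 7.30, 7.24 and 7.30 in KLA plus hBD3 arrays, 7.01, 7.18 and 5.74 in KLA arrays, 6.61, 6.57 and 5.87 in hBD3 arrays and 6.91, 7.18 and 6.39 in untreated arrays. Its changes had the same signs as those of the brighter probe in all 5 comparisons, with 0 calls, and replicate 3 was low in the 3 groups other than KLA plus hBD3. Its interaction was 1.11 ± 0.47 (adjusted p = 0.339).

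The 2 probes of Lpcat3 disagreed. Its dimmer probe gave 6.21, 6.29 and 6.48 in KLA plus hBD3 arrays, 6.50, 6.34 and 6.58 in KLA arrays, 6.63, 6.70 and 6.94 in hBD3 arrays and 7.12, 7.01 and 6.80 in untreated arrays. It was lower in KLA plus hBD3 than in untreated arrays (-0.65 ± 0.11, adjusted p = 0.00686) and lower in KLA than in untreated arrays (-0.51 ± 0.11, adjusted p = 0.00829). Between KLA plus hBD3 and KLA it changed by -0.15 ± 0.11 (adjusted p = 0.678), where the brighter probe was called higher. The 2 probes of Lpl were both lower in KLA than in untreated arrays, the dimmer one by -0.74 ± 0.18 (adjusted p = 0.0124), but the dimmer one was not called in KLA plus hBD3 against KLA (0.28 ± 0.18, adjusted p = 0.566). That Lpl probe is annotated to another transcript record than the brighter one. It was detected in 1 of 3 KLA and 2 of 3 KLA plus hBD3 arrays. The dimmer Lpcat3 probe was detected in 3 of 3 and 2 of 3. The second probe of Apoc2 was not called in any comparison, and those of Mylip and Srebf1 were detected in 0 arrays.

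**Figure D3:**
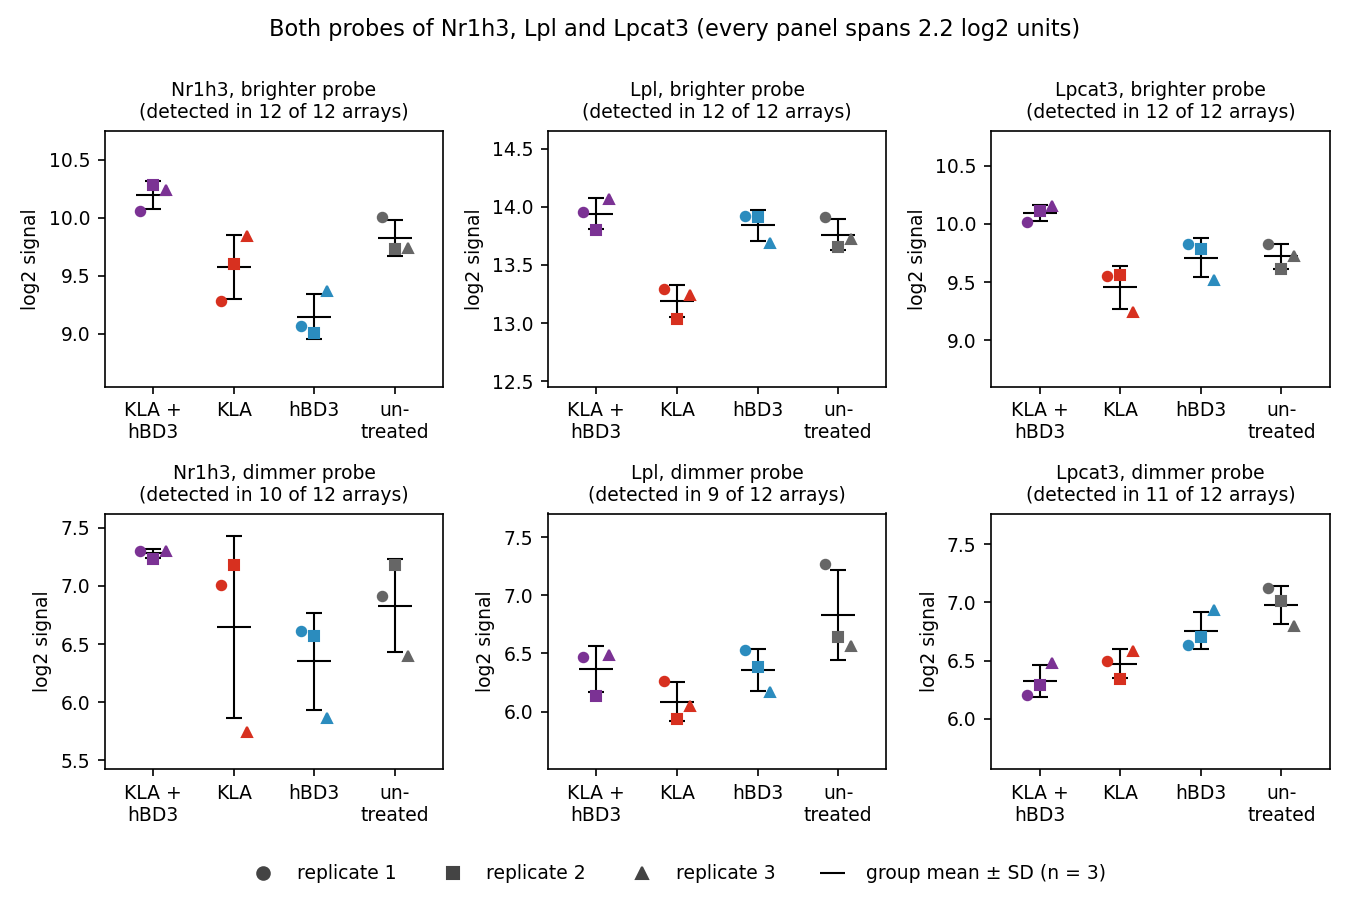
Log2 signal of both probes of Nr1h3, Lpl and Lpcat3 in each array (points) with the group mean and SD (n = 3) for KLA plus hBD3, KLA, hBD3 and untreated macrophages. The brighter Lpcat3 probe is highest in KLA plus hBD3 arrays (10.02 to 10.16). The dimmer one has its lowest mean there, but its arrays (6.21 to 6.48) overlap the KLA arrays (6.34 to 6.58).

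Promoters of the set were read from the RefSeq windows of GRCm38.p6, from 250 bases before to 50 after a transcript start, which covered 8 of the 10 genes in 13 windows. Abcg1 and Lpl had no entry. Both strands were searched for the LXR site, a direct repeat of AGGTCA with 4 bases of any kind between the copies (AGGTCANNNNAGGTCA). It was found in 0 of the 13 windows with both copies exact and in 0 with at most 1 mismatch in each copy, where 0.0152% and 1.75% of all 32851 promoters held it. Copies with more mismatches were not searched for, so these counts do not show that a window lacks an LXR site. The NF-kB form GGGANNNNCC was found in 6 of the 13 windows, of Nr1h2, Apoe, Lpcat3 and Srebf1, where 20.7% of all promoters held it. The E-box CACGTG was found in 1, of Abca1, where 7.15% of all promoters held it. Matches of letters describe the windows and show no binding. The windows of Nr1h3 and Lpcat3 are shown because their interaction was called, and capitals mark the NF-kB form, which begins 132 bases before the start of Lpcat3 and is not in the Nr1h3 window.
Nr1h3, minus strand, chr2:91195067-91195366: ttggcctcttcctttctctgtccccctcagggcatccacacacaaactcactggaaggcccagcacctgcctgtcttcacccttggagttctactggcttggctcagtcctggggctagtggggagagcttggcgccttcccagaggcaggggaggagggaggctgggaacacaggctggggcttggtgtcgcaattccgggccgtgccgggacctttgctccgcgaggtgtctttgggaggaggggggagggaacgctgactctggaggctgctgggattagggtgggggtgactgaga
Lpcat3, plus strand, chr6:124662854-124663153: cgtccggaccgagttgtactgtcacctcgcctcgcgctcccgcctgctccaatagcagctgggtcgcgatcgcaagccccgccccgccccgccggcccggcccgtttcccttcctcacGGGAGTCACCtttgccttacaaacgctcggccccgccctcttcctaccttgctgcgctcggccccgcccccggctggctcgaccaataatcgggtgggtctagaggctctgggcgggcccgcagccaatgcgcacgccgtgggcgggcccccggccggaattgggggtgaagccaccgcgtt

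Abcg1 itself lies at chr17:31057694-31117984 and Lpl at chr8:68880555-68906932. Among 8270 genes with a detected probe, those whose profile over the 12 arrays was nearest to that of Abcg1 were Klf2, Cd8b1 and Plxnb2, with root mean square differences of 0.21, 0.27 and 0.29 log2 units from a profile with an SD of 0.96. Klf2 encodes a transcription factor, and its mean level was 8.09 in KLA plus hBD3 arrays, 6.86 in KLA arrays, 8.79 in hBD3 arrays and 8.82 in untreated arrays. The likeness is a description with no test. No such genes are given for Abca1, which was not detected.

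The wider network was described with 7 further lists. Of detected probes, 23.1% were called lower and 19% higher in KLA against untreated, and 10.9% higher and 10.3% lower in KLA plus hBD3 against KLA, and the detected members of each list are set beside these shares as a description. Other known LXR targets had 22 measured genes, of which 4 were lower and 1 higher in KLA than in untreated macrophages, 33.3% and 8.33% of its 12 detected genes. Those lower were Fads1, a fatty acid desaturase (-1.95 ± 0.11, adjusted p = 2.66e-07), the lipid droplet coat gene Plin2 (-1.40 ± 0.21), the phosphodiesterase Smpdl3a (-0.96 ± 0.12) and the elongase Elovl5 (-0.76 ± 0.19). The gene called higher was Mertk, a receptor for dying cells (0.71 ± 0.13), which falls outside the rule for named genes and was picked after its values were seen. After median centring its change was 0.10 and not called (adjusted p = 0.849). The Elovl5 call was lost without KLA replicate 3 or untreated replicate 1 (adjusted p = 0.0525 and 0.0523). Adding hBD3 to KLA gave higher Fads1 (1.64 ± 0.11, adjusted p = 6.58e-06) and lower Mertk (-0.63 ± 0.13), where 3.48% of all probes were called lower. Scd2, a desaturase, was called higher, but was not detected in KLA arrays, so its signal was at least 1.17-fold higher. The Mertk call was lost without KLA plus hBD3 replicate 2 and the Scd2 call without KLA replicate 1 or KLA plus hBD3 replicate 2 (adjusted p = 0.0525 to 0.0635). In KLA plus hBD3 against KLA, 2 genes were called higher and 1 lower. These were 16.7% and 8.33% of the 12 detected genes, beside 10.9% and 10.3% of detected probes. The count called higher was 5 without hBD3 replicate 3 and 1 without KLA replicate 1. The list's median change was -0.09 in KLA and 0.03 in KLA plus hBD3 against KLA.

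Of 16 measured LXR partners, corepressors and coactivators, 4 were lower with KLA and 0 higher, and the 4 were 40% of its 10 detected genes. Tbl1xr1, a subunit that helps exchange corepressors for coactivators, changed by -1.65 ± 0.18, and Ppargc1b, a coactivator of lipid metabolism, by -1.36 ± 0.11. The retinoid X receptor gene Rxrb changed by -0.43 ± 0.10, a call lost without KLA replicate 1 or untreated replicate 2 (adjusted p = 0.0553 and 0.0577). Rxra was not detected in KLA arrays and was at least 1.04-fold lower there. Tbl1xr1 (1.17 ± 0.18) and Ppargc1b (0.57 ± 0.11) were higher in KLA plus hBD3 than in KLA arrays, and 0 genes were lower. The 2 were 20% of the detected genes, beside 10.9% of detected probes.

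Of 16 measured genes in a list of other nuclear receptors, 3 were lower and 1 higher with KLA, 50% and 16.7% of 6 detected. Without KLA replicate 3 the count called higher was 3. Pparg, the fatty acid receptor of adipocytes and macrophages, changed by -2.12 ± 0.15, and Ppard by 0.76 ± 0.14. Nr1d2 was not detected in KLA arrays and was at least 1.40-fold lower there, a call lost without KLA replicate 2 or untreated replicate 3 (adjusted p = 0.0571 and 0.0573). Nr1i3 changed by -0.38 ± 0.09. Pparg was higher in KLA plus hBD3 than in KLA arrays (1.37 ± 0.15, adjusted p = 1.40e-04) and Rora lower (-0.38 ± 0.09). Each was 16.7% of the detected genes, beside 10.9% of detected probes higher and 10.3% lower. The Rora call was lost in 4 of 12 leave-one-out fits, without KLA replicate 1 or 3 or KLA plus hBD3 replicate 1 or 2 (adjusted p = 0.0547 to 0.0835).

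Of 14 measured genes of lipid uptake and fatty acid binding, 4 were lower and 1 higher with KLA, 44.4% and 11.1% of 9 detected genes. The lipid receptor Trem2 (-1.51 ± 0.13), the scavenger receptor Stab1 (-1.47 ± 0.21) and the fatty acid transporter Slc27a1 (-1.45 ± 0.14) were lower. Fabp3, a fatty acid binding protein, was higher (2.28 ± 0.21). These 4 genes were called in the opposite direction in KLA plus hBD3 against KLA, with Stab1 at 1.06 ± 0.21, Trem2 at 0.98 ± 0.13, Slc27a1 at 0.88 ± 0.14 and Fabp3 at -1.56 ± 0.21. The comparisons share the KLA arrays. The list held 3 genes higher and 2 lower in KLA plus hBD3 against KLA, 33.3% and 22.2% of the detected genes. Beside these, 10.9% of detected probes were higher and 10.3% lower. The count lower was 1 without KLA plus hBD3 replicate 2 or KLA replicate 3.

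Cholesterol storage, hydrolysis and oxysterol genes had 18 measured members, 9 lower and 1 higher with KLA, 52.9% and 5.88% of 17 detected genes. Nceh1, which hydrolyses stored cholesterol esters, changed by -2.98 ± 0.12 (adjusted p = 3.22e-08). Cyp27a1, which makes the oxysterol ligand 27-hydroxycholesterol, changed by -1.97 ± 0.19, and Lipa, the lysosomal acid lipase, by -1.58 ± 0.10. Ch25h, which makes 25-hydroxycholesterol, was higher (1.50 ± 0.22). With hBD3 added to KLA, Nceh1 (1.95 ± 0.12, adjusted p = 3.45e-06), Cyp27a1 (1.61 ± 0.19), Lipa (0.77 ± 0.10) and the triglyceride lipase Pnpla2 (0.42 ± 0.07) were higher, and 0 genes were lower. The 4 were 23.5% of the detected genes, beside 10.9% of detected probes. The list's median was -0.40 with KLA and 0.22 in KLA plus hBD3 against KLA.

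**Figure D4:**
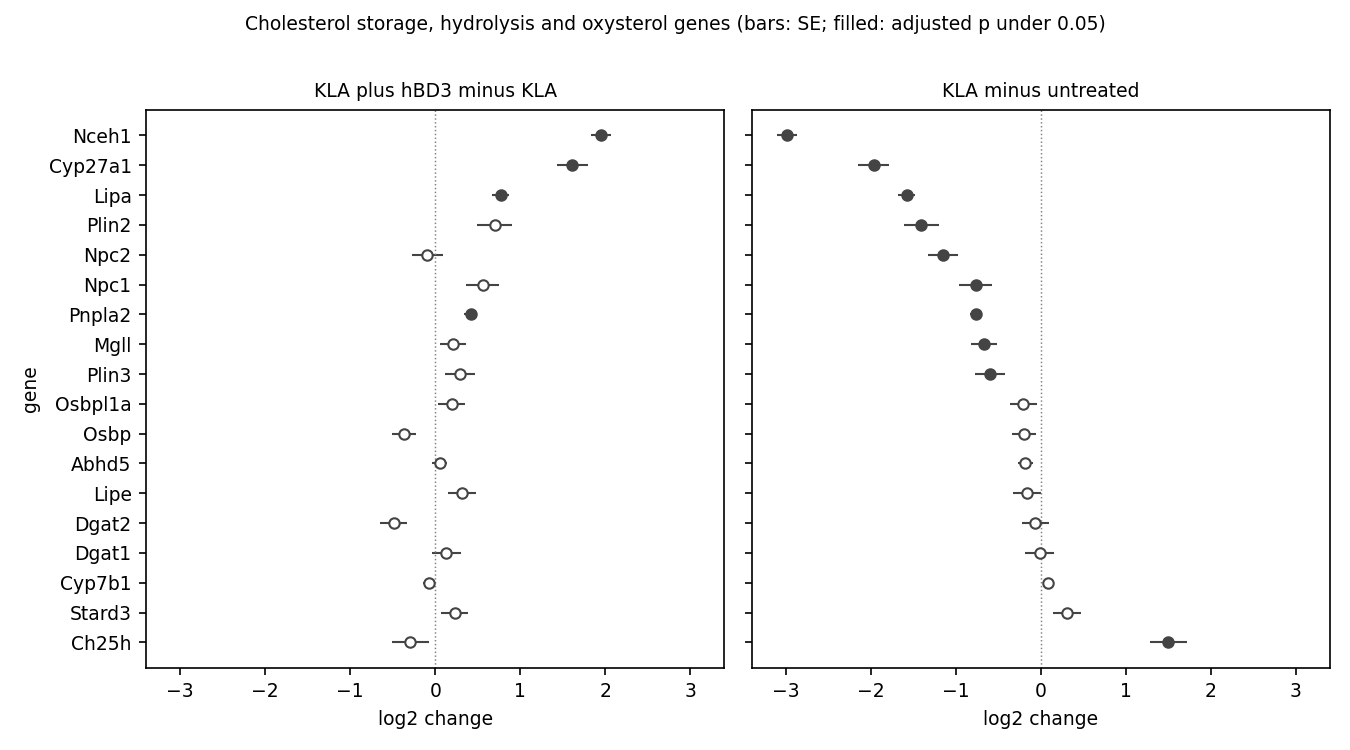
Log2 change (points) with its SE (bars) of the 18 measured cholesterol storage, hydrolysis and oxysterol genes in KLA plus hBD3 minus KLA and in KLA minus untreated, filled where the adjusted p over all probes was under 0.05. Nceh1 stands at 1.95 and -2.98, and Ch25h at the opposite end with 1.50 in KLA minus untreated. Both panels use the same KLA arrays.

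Sterol synthesis and SREBP2 pathway genes went both ways, with 6 of 22 measured members higher and 3 lower with KLA, 31.6% and 15.8% of 19 detected genes. Leaving out each array in turn gave 3 to 7 higher, with 3 without untreated replicate 2, and 3 lower each time. Hsd17b7 (1.45 ± 0.20) and Cyp51 (1.20 ± 0.32) were higher, and Dhcr7 (-1.13 ± 0.15) and Ebp (-1.11 ± 0.12) lower, all enzymes of cholesterol synthesis. The split depended on the scale, since after median centring 0 members were higher and 5 lower. The Cyp51 call was lost without KLA replicate 1 or 2 or untreated replicate 2 or 3 (adjusted p = 0.0956 to 0.107). With hBD3 added to KLA, Ebp (0.72 ± 0.12), Dhcr7 (0.54 ± 0.15) and the SREBP protease Mbtps1 (0.39 ± 0.10) were higher. The 3 were 15.8% of the detected genes, beside 10.9% of detected probes. The Dhcr7 call was lost in 8 of 12 leave-one-out fits (0.0602 to 0.173) and that of Mbtps1 in 3 (0.103 to 0.129), so that 1 to 3 members were called higher.

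Of 14 measured phospholipid remodelling genes other than Lpcat3, 3 were lower and 0 higher with KLA. The 3 were 25% of 12 detected genes, near the 23.1% of detected probes. Pla2g15, a lysosomal phospholipase (-2.06 ± 0.13), Lpin2, a phosphatidate phosphatase (-1.09 ± 0.13), and the acyltransferase Agpat2 (-0.68 ± 0.15) were lower. Both Pla2g15 (1.31 ± 0.13, adjusted p = 7.82e-05) and Lpin2 (0.72 ± 0.13) were higher in KLA plus hBD3 than in KLA arrays, and 0 genes were lower. The 2 were 16.7% of the detected genes, beside 10.9% of detected probes.

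The genes named from the 7 lists were picked because they were called. In KLA against untreated there were 27, and 24 of them were also called after median centring. The 3 lost, Ppard, Hsd17b7 and Cyp51, had all been called higher. Median centring gave detected probes a median change of -0.52 in this comparison, so it favours lower calls, and the 24 are no independent check of those. Between KLA plus hBD3 and KLA, 20 were called and 8 of them also after median centring, which were Fads1, Tbl1xr1, Pparg, Fabp3, Stab1, Nceh1, Cyp27a1 and Pla2g15. Macrophage markers had median changes of -0.53 with KLA and 0.57 in KLA plus hBD3 against KLA. In the same order the medians were -0.40 and 0.22 for cholesterol storage and -0.22 and 0.07 for phospholipid remodelling. They were -0.09 and 0.03 for other LXR targets, -0.06 and 0.00 for lipid uptake and -0.03 and 0.04 for other nuclear receptors. LXR partners had 0.02 and 0.00. Sterol synthesis went the other way, with 0.24 and -0.08.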

How the data were processed

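RNA from 12 cultures was measured on Illumina MouseWG-6 BeadChips. The authors exported probe intensity on a linear scale, with a detection p-value per probe in the deposited table before normalization, and gave a second table of intensity after quantile normalization. Tool versions are not given in the sources used here. The analysis took log2 of the normalized intensity of all 45281 probes. A group-means model over the 12 arrays was fitted with limma 3.58.1 in R 4.3.3, with Benjamini-Hochberg adjustment over all probes, following the study's methods. Each column before normalization, once quantile normalized, equalled 1 sample of its own group for 100% of probes within 0.1%. Headings of the table before normalization name LPS, which was read as KLA. No heading of a column that equalled a KLA sample names hBD3.

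Of the probes, 34885 named 1 gene, 18 several and 10378 none. Of those naming 1 gene, 34807 had a gene identifier found in the reference table, which changed 0 symbols. A change against a group with no detected array is given as a bound, the brighter group's mean over the mean of, per array, the higher of the lowest detected signal and the probe's own.

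Arrays with the same replicate number deviated together in KLA, hBD3 and untreated (correlations of deviations 0.27 to 0.71, all 9 pairs). In these groups arrays numbered 1 and 2 also did so across numbers (0.21 to 0.44). Replicate 3 arrays correlated with those of the other numbers at -0.62 to -0.30. Whether the numbers pair the arrays was not tested. In KLA plus hBD3 only replicate 1 deviated with the arrays of its own number. The genes and lists were chosen with earlier results of these data known. From each list the up to 4 largest called changes in each of 2 comparisons were named. The fit was checked on simulated data. Alternatives covered normalization (median centring, neqc with an offset of 16), detection, variance model, groups in the fit, replicate block, probe, labels and leaving out each array. Running them on the further lists was decided after seeing the data.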

Additional observations from a re-analysis of the deposited data

Results flagged for a closer look

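A different effect of hBD3 with and without KLA was called for 3 of the 9 genes by the interaction test in limma, where 1.66% of all probes were called higher and 1.74% lower. For Nr1h3 the effect with KLA minus the effect without it was 1.29 log2 units. All 3 KLA plus hBD3 arrays were above all 3 KLA arrays, and all 3 hBD3 arrays were below all 3 untreated arrays. Arrays did not overlap in these comparisons for 20.8% and 11.7% of all probes. The Nr1h3 change with hBD3 alone was not called (adjusted p = 0.196). For Lpl the difference was 0.67 and for Lpcat3 it was 0.65. The brighter Lpcat3 probe carries that value, and the dimmer one gave 0.07 (adjusted p = 0.928). The dimmer probes of Nr1h3 (1.11, adjusted p = 0.339) and Lpl (0.75, adjusted p = 0.179) were not called either. Of the 12 fits that each left out 1 array, the Lpl call was lost in 6 and the Lpcat3 call in 9.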

How the results depend on the processing

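The KLA against untreated changes of Abcg1 and Lpl kept their direction in all alternatives run. Of the 9 called changes, 149 of 193 alternative values kept direction and call, 43 lost the call and 1 turned. Of the changes not called, 48 of 768 turned, among them changes of Abca1, whose signal was at background. Causes were not tested.

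Counts of the 9 genes called, with 2 in KLA against untreated, 4 in KLA plus hBD3 against KLA, 0 in KLA plus hBD3 against untreated, 0 in hBD3 against untreated and 3 in the interaction, moved as follows. Median centring gave 5, 0, 1, 0 and 1, with 8509, 1216, 6180, 0 and 425 of all 45281 probes called. KLA replicate 1 alone gave 1 in KLA against untreated, 2 in KLA plus hBD3 against KLA and 1 in the interaction. Second probes gave 1 in KLA plus hBD3 against KLA, 1 in KLA plus hBD3 against untreated and 0 in the interaction. Fitting only the groups compared gave 2 in KLA plus hBD3 against untreated. Without the replicate 3 arrays of KLA, hBD3 and untreated, 1 was called in KLA plus hBD3 against untreated and 1 in hBD3 against untreated. With the replicate block, 3, 6, 1, 0 and 4 were called, adding Apoc2 in KLA against untreated, Apoe (adjusted p = 0.0354) and Apoc2 (0.0222) in KLA plus hBD3 against KLA, and Abcg1 in the interaction (0.00819). That fit called 7823, 4161, 3065, 15 and 2307 of all 45281 probes. Of KLA plus hBD3 arrays only replicate 1 deviated with its own number, and 10 of 12 arrays correlated best with an array of their own number. Leaving out each array gave 2 to 3, 2 to 5, 0 to 1, 0 and 1 to 3.

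Median centring shifted detected probes as a whole, their median change being -0.52 in KLA against untreated, -0.49 in KLA plus hBD3 against untreated, -0.24 in hBD3 against untreated, 0.27 in the interaction and 0.05 in KLA plus hBD3 against KLA. Of called probes, 14.97% were higher in KLA against untreated, against 46.1% in the main fit. The shares were 5.23% against 44.7% in KLA plus hBD3 against untreated, and 60.5% against 48.8% in the interaction. Called probes numbered 1216 in KLA plus hBD3 against KLA, against 3165, 6180 in KLA plus hBD3 against untreated, against 1986, and 425 in the interaction, against 1542.

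These changes turned. Under median centring KLA plus hBD3 against untreated gave -0.59 for Apoc2, -0.27 for Lpcat3, -0.32 for Lpl, -0.091 for Mylip, -0.27 for Nr1h3 and -0.18 for Srebf1. KLA against untreated gave -0.32 for Mylip and -0.43 for Srebf1, hBD3 against untreated gave -0.051 for Lpl, and KLA plus hBD3 against KLA gave -0.0045 for Abca1. Under neqc Abca1 gave -0.018 in the last comparison. Second probes gave -0.011 for Apoc2, -0.65 for Lpcat3 and -0.47 for Lpl in KLA plus hBD3 against untreated, -0.15 for Lpcat3 and -0.021 for Srebf1 in KLA plus hBD3 against KLA, and -0.47 for Lpl and 0.041 for Mylip in hBD3 against untreated. With KLA replicate 1 alone, KLA plus hBD3 against KLA gave -0.13 for Abca1 and -0.068 for Mylip. Without the 3 replicate 3 arrays, the values were -0.056 for Abca1 and -0.048 for Mylip in KLA plus hBD3 against KLA, 0.25 for Apoe in KLA against untreated and 0.085 for Lpcat3 in hBD3 against untreated.

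Leaving out each array spanned 0 in these cases. In KLA against untreated the ranges were -0.026 to 0.11 for Abca1, -0.35 to 0.11 for Apoe, -0.19 to 0.30 for Mylip and -0.031 to 0.30 for Srebf1. For KLA plus hBD3 against KLA they were -0.056 to 0.069 for Abca1 and -0.048 to 0.36 for Mylip. For KLA plus hBD3 against untreated they were -0.024 to 0.10 for Abca1 and -0.28 to 0.28 for Apoc2. In hBD3 against untreated they were -0.044 to 0.084 for Abca1, -0.54 to 0.15 for Abcg1, -0.017 to 0.44 for Apoe, -0.070 to 0.083 for Lpcat3, -0.46 to 0.00 for Mylip and -0.26 to 0.065 for Srebf1. In the interaction the range was -0.088 to 0.046 for Abca1.

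Chip as a block was not run, since the headings do not say which array lay on which chip. Signal near background limits Abca1, Mylip and Srebf1.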
